A study of Mus musculus with 10 samples.

Results

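Microglia are the resident macrophages of the brain. The genes described here are 36 listed microglia genes, chosen by symbol, of which 35 occur among the 20483 genes of the expression table, and Ptprc, the gene of the leukocyte antigen CD45, was not analysed here. The samples came from wild-type (WT) mice, and the groups were the lateral shell of the nucleus accumbens (5 libraries) and its medial shell (5 libraries), parts of the ventral striatum that the study compares for reward processing. The labels call the libraries biological replicates, give the cell type as mouse neural cell, and do not say whether each came from its own animal, so that p-values measure the spread between these libraries, which may be partly technical. The sources used here give neither age nor sex nor the number of animals. RNA was amplified with Geo-seq, in which small areas of a tissue section are taken by laser capture. Values are TPM, the authors' measure of transcript abundance, which divides by gene length and is scaled to a total of 1000000 in each library. They can be compared between genes, but they keep no sequencing depth.

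Microglia survey the tissue with fine processes. In the healthy brain they hold a homeostatic state that depends on signals such as the cytokines sensed by the CSF1 receptor, and it is marked by purinergic receptors, the fractalkine receptor and the surface protein TMEM119. On activation they raise lysosomal and phagocytic genes and signal through adaptors with immunoreceptor motifs, such as TYROBP. They are also the main source of complement C1q in the brain, a protein that tags synapses and debris for removal. Transcription factors of the ETS and IRF families, PU.1 (encoded by Spi1) and IRF8, set up this programme together with SALL1.

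Since PU.1 is known as a shared regulator of microglia genes, promoters of Ly86, Ctss, C1qb and C1qc are shown first. RefSeq promoter windows (GRCm38.p6, 250 bases before to 50 after a gene's start) were found for 25 of the 35 members. Of the 4 members called in the test below, Ctss and Ly86 had a window and C1qa and Tmem119 had none. The windows of C1qb and C1qc, which did not pass, are shown as neighbours of C1qa. Each sequence runs 5′ to 3′ on the gene's strand from position -250, where position 1 is the RefSeq start, and stops at most 30 bases past the more upstream of the RefSeq and GENCODE starts. Capitals mark matches, on either strand, to the PU.1-type motif GAGGAAGT or its core GAGGAA, which is part of the longer motif.
Ctss, chr3:95526536-95526815, plus strand: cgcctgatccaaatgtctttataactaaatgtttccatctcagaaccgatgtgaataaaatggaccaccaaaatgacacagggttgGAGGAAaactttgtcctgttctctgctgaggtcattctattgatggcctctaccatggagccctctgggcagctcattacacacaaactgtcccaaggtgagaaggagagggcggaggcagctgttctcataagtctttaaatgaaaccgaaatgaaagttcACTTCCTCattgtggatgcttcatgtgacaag
C1qb, chr4:136886171-136886450, minus strand: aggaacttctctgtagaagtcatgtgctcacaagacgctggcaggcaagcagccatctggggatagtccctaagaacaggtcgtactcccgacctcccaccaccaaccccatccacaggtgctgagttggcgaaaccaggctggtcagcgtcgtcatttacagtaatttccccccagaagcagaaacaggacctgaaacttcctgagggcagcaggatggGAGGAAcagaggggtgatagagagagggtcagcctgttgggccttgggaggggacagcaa
C1qc, chr4:136893036-136893164, minus strand: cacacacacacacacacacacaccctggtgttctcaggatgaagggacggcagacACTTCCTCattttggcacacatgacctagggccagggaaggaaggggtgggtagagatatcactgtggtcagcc
Ly86, chr13:37345095-37345237, plus strand: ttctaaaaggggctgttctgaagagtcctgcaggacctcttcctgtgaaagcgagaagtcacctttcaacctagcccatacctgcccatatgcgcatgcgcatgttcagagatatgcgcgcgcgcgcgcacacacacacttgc
In the Ctss promoter the longer motif lay on the opposite strand from position -2 to 6, across the start, and a core on the gene's strand from position -164 to -159. The C1qc window held the longer motif on the opposite strand from -195 to -188, and that of C1qb held the core from -30 to -25. The Ly86 window had no match to these letters. GAGGAAGT was present in 5 of the 32 promoter windows of members (15.6%), those of C1qc, Cd53, Ctss, Inpp5d and Slco2b1, and in 3.2% of all 32851 windows. The core GAGGAA was in 18 of the 32 (56.2%) and in 28.3% of all windows. The ETS-IRF composite element (GGAA, then 2 bases of any kind, then GAAA), where an ETS and an IRF factor bind side by side, was in 1 of the 32 (3.12%), that of Cd68, and in 2.72% of all. These matches are descriptions of the sequence.

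As a group, the microglia genes stood at higher levels in the lateral than in the medial shell, most clearly Ly86, C1qa, Tmem119 and Ctss. Summed over the 35 members, the libraries held 1119, 1000, 961, 1213 and 790 TPM in lateral replicates 1 to 5 and 666, 453, 865, 471 and 468 TPM in medial replicates 1 to 5. The means were 1017 ± 161 TPM (SD, n = 5) and 585 ± 180 TPM (SD, n = 5). The ranges overlapped in 1 pair of libraries, medial replicate 3 and lateral replicate 5. Of the 35 members, 33 had a higher mean in lateral libraries, and the other two were Cd68 and Lyz2. In captured tissue, fewer microglia and less RNA of these genes per microglial cell cannot be told apart.

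Differences were tested with limma on log2(TPM + 1) over 15596 genes, and a log2 fold change is the lateral mean less the medial mean on that scale, which understates the change of genes at low levels. Of the 35 members 34 passed the filter of 1 TPM in at least 5 libraries. For 11 of the 34 fewer than 5 medial libraries reached 1 TPM. Cd14, a lipopolysaccharide co-receptor gene, did not pass the filter: it was listed at 0 in 9 libraries and at 4.36 TPM in lateral replicate 2. At an adjusted p under 0.05, 4 of the 34 tested members were higher in lateral libraries (11.8%) and none was lower, by limma, where 0.385% and 1.10% of all genes tested were called in these directions. None was lower at an unadjusted p under 0.05 either. At that level 19 members (55.9%) were higher, against 3.03% of all genes, and the other 15 were not. A log2 fold change above 0 was found for all 34 tested members and for 31.3% of all genes tested. Members can vary together in a library, and they were chosen with earlier results of these data known. As a set they were not tested. The median log2 fold change was 0.82 over the tested members and -0.21 over all genes. Under median-ratio scaling the 2 medians were 1.00 and -0.02, and under quantile normalization 1.01 and 0.00, so the distance between them was 1.02 as reported, 1.02 with median-ratio scaling and 1.01 with quantile normalization.

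**Figure D1:**
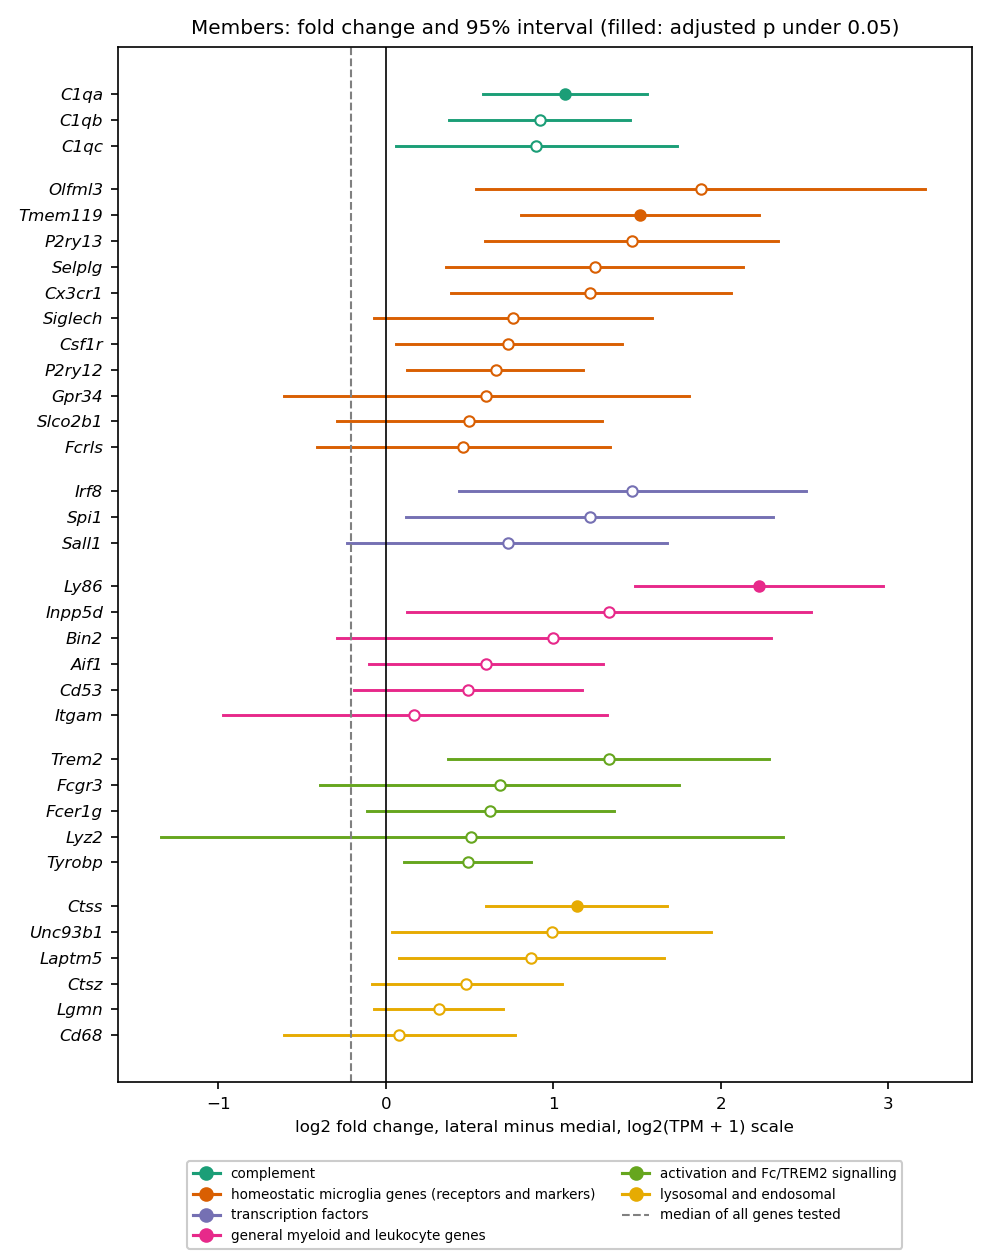
Log2 fold change (x axis, lateral less medial in log2(TPM + 1)) with its 95% interval for the 34 tested members, grouped by role. Filled points had a adjusted p by limma under 0.05, and the dashed line is the median of all genes tested (-0.21). All 34 points lie right of 0, from 0.08 for Cd68 to 2.23 for Ly86, and 19 of the intervals lie wholly above 0.

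Ly86 had the largest log2 fold change of the members on the log2(TPM + 1) scale. By ratio of means Irf8, at low levels, was higher (5.52). With a pseudocount of 0.1 Inpp5d, Olfml3 and Irf8 had larger log2 fold changes (3.2, 3.17 and 2.66) than Ly86 (2.35). Ly86 encodes MD-1, a secreted protein that binds the Toll-like receptor relative RP105 on myeloid and B cells. It lies on chromosome 13, 37345208 to 37419036, plus strand (GRCm38), and overlaps no other annotated gene. Ly86 was at 73.1, 39.8, 49.8, 47.2 and 29.2 TPM in lateral replicates 1 to 5 and at 7.64, 4.04, 20.1, 9.33 and 9.47 TPM in medial replicates 1 to 5. Every lateral library was above every medial one, with medial replicate 3 the closest. The means of 47.8 ± 16.3 and 10.1 ± 5.98 TPM (SD, n = 5 each) differed 4.73-fold. The log2 fold change was 2.23 (standard error 0.34, 95% interval 1.49 to 2.97, adjusted p by limma = 0.00884), the 31st smallest p and the 26th largest log2 fold change of the 15596 genes. Ly86 was the only member called in all 22 alternative fits, with an adjusted p of 0.00417 to 0.0299 and a log2 fold change of 1.83 to 2.50. The difference of Ly86 was wider than that of other abundant members in the same libraries. Its level relative to Tyrobp was 0.411 to 0.645 in lateral and 0.073 to 0.27 in medial libraries, and relative to C1qb 0.337 to 0.638 and 0.111 to 0.263.

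The C1q genes encode the A, B and C chains of 1 protein and lie side by side on the minus strand of chromosome 4, C1qb at 136880129 to 136886187, C1qc at 136889804 to 136893065 and C1qa at 136895917 to 136898803. C1qa was at 96.3, 120, 124, 106 and 85.7 TPM in lateral and at 54.7, 38.7, 84.5, 49.6 and 34 TPM in medial replicates 1 to 5. The values did not overlap, although lateral replicate 5 and medial replicate 3 nearly met. Its means were 106 ± 15.9 and 52.3 ± 19.8 TPM (SD, n = 5 each; log2 fold change 1.07, standard error 0.23, adjusted p by limma = 0.035). C1qb was at 115, 101, 112, 140 and 61.1 TPM in lateral and 67.6, 36.4, 76.3, 42.0 and 55.3 TPM in the medial libraries. Lateral replicate 5 fell among the medial values of C1qb, and the other 4 lateral libraries lay above all of them. The log2 fold change of C1qb was 0.92 (95% interval 0.38 to 1.46, adjusted p by limma = 0.0943), and without lateral replicate 5 it was 1.11 (adjusted p = 0.0496). C1qc was at 26.6, 76.2, 82.2, 67.9 and 43.4 TPM in lateral and 40.6, 21.5, 57.7, 12.6 and 31.3 TPM in the medial libraries, a log2 fold change of 0.90 (95% interval 0.06 to 1.74, adjusted p by limma = 0.292). Here lateral replicate 1 was the low library, below 3 of the medial ones. The ratio of C1qa to C1qb was 1.06 ± 0.26 in lateral and 0.955 ± 0.236 in medial libraries (SD, n = 5 each), and that of C1qc to C1qb 0.582 ± 0.223 and 0.563 ± 0.165.

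**Figure D2:**
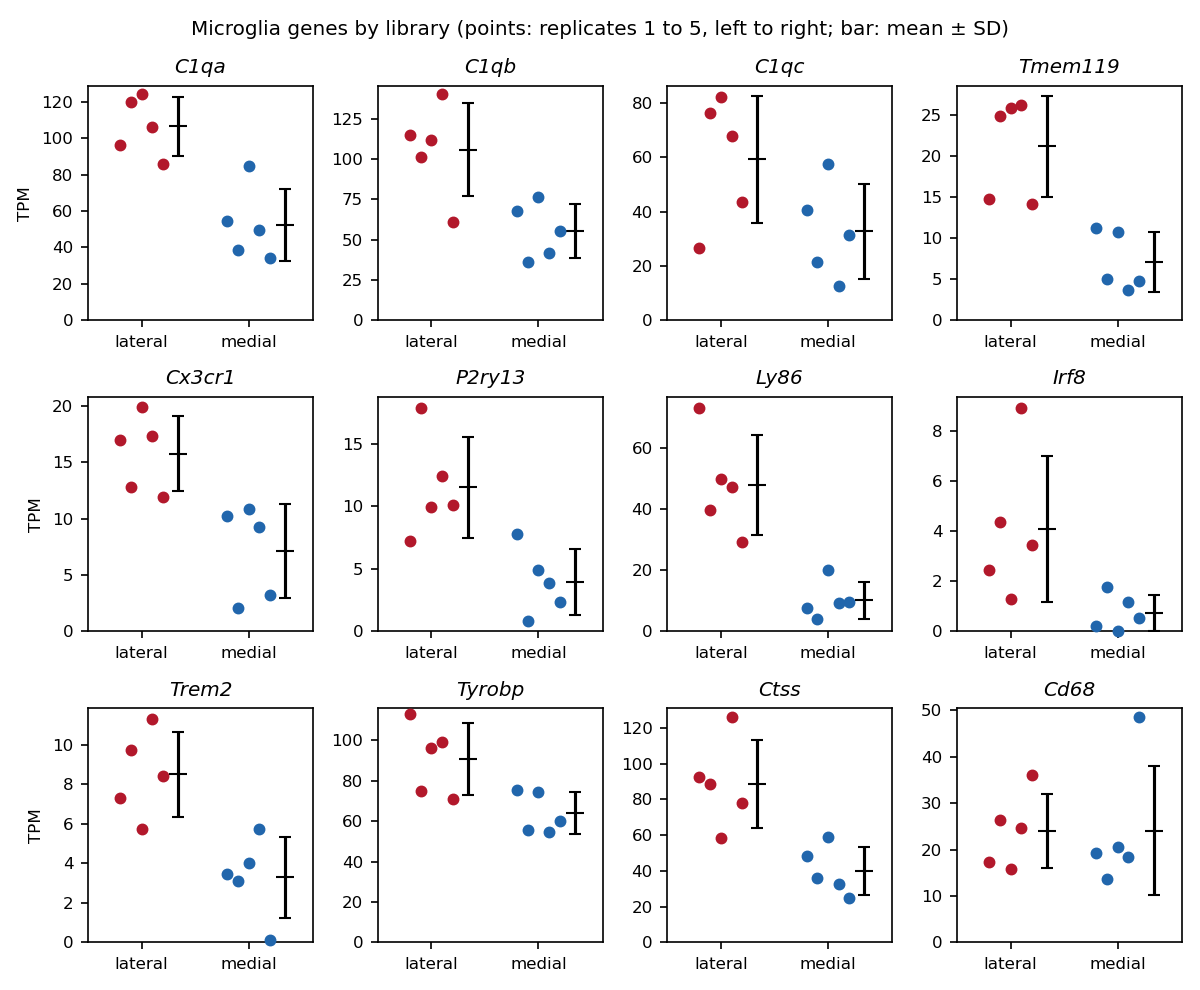
TPM (y axis, from 0) of 12 members in each of the 10 libraries, replicates 1 to 5 from left to right in each region, with mean ± SD beside the points. Ly86, C1qa, Tmem119 and Cx3cr1 have no overlap between the regions, while the Cd68 points of the regions lie over each other at means of 24.0 and 24.1 TPM.

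Among the 11 homeostatic genes 1 passed, Tmem119, and the group's median log2 fold change was 0.76 with a range of 0.46 to 1.88. Tmem119, a surface protein gene that separates microglia from other macrophages (chromosome 5, 113793729 to 113800516, minus strand), was at 14.7, 24.9, 25.8, 26.2 and 14.2 TPM in lateral and 11.2, 4.99, 10.8, 3.64 and 4.85 TPM in the medial libraries. Lateral replicates 2 to 4 formed a high set, and lateral replicates 1 and 5 lay just above the medial range. The log2 fold change of Tmem119 was 1.52 (standard error 0.33, adjusted p by limma = 0.0381). Cx3cr1, the receptor of the neuronal chemokine fractalkine, was at 17.0, 12.8, 19.9, 17.3 and 11.9 TPM in lateral and 10.2, 2.04, 10.9, 9.25 and 3.26 TPM in the medial libraries. These values also did not overlap, but the spread among medial libraries was wide and the difference did not pass (log2 fold change 1.22, 95% interval 0.39 to 2.06, adjusted p by limma = 0.152). In all 4 of the 34 tested members had no overlap with lateral higher (11.8%), against 0.859% of all genes tested, and none had no overlap with lateral lower, against 3.39%.

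The purinergic receptor genes P2ry12 and P2ry13, which let microglia sense extracellular nucleotides, differed in their spread. P2ry12 was at 22.5, 20.1, 20.8, 22.2 and 21.5 TPM in lateral and at 11.4, 12, 24.5, 12.2 and 9.75 TPM in the medial libraries. The lateral values had a coefficient of variation of 4.47%, the smallest of any member in either region, while medial replicate 3 stood above all lateral libraries. Its log2 fold change was 0.66 (95% interval 0.13 to 1.18, adjusted p by limma = 0.219). P2ry13 was at 7.21, 17.9, 9.96, 12.4 and 10.1 TPM in lateral and 7.80, 0.87, 4.93, 3.87 and 2.33 TPM in the medial libraries (log2 fold change 1.47, 95% interval 0.59 to 2.34, adjusted p by limma = 0.104). Only lateral replicate 1 and medial replicate 1 overlapped for P2ry13. Both genes overlap Med12l, which is on the other strand, and reads of the 2 strands cannot be told apart if the counting did not use strand. Cx3cr1, Csf1r, Gpr34 and Slco2b1 also overlap genes of the other strand, and the annotated span of Cx3cr1 takes in Gorasp1, Csrnp1 and Xirp1 on its own. Over all members in the table, 7 overlap a gene on the same strand, among them Irf8 (Gm20388) and Itgam (Gm49368). On the other strand 7 do, among them Ctsz (Nelfcd).

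The remaining homeostatic genes did not pass. Olfml3, a secreted matrix protein gene, had the largest log2 fold change of this group, 1.88 (95% interval 0.54 to 3.22, adjusted p by limma = 0.168), at 5.64 to 19.0 TPM in lateral and 0 to 7.29 TPM in the medial libraries. Selplg, the gene of the selectin ligand PSGL-1, was at 12.9 to 41.2 TPM and 4.75 to 23.6 TPM (log2 fold change 1.25, adjusted p by limma = 0.168). Csf1r, the receptor on which microglia depend for survival, was at 40.7, 18.6, 17.9, 20.8 and 12.4 TPM in lateral and 15.1, 8.32, 18.5, 9.59 and 10.5 TPM in the medial libraries. Lateral replicate 1 stood far above the rest for Csf1r, and the log2 fold change of 0.73 did not pass (95% interval 0.06 to 1.41, adjusted p by limma = 0.285). Siglech, a sialic acid-binding lectin gene, had a log2 fold change of 0.76 and the transporter gene Slco2b1 of 0.50 (adjusted p by limma = 0.37 and 0.554). Gpr34, a lysophospholipid receptor gene, was at 11.5, 19.4, 14.6, 17.2 and 2.05 TPM in lateral and 11.5, 2.93, 10.7, 13.4 and 2.38 TPM in the medial libraries. Its lowest library was a lateral one, replicate 5, and its interval of -0.61 to 1.81 around a log2 fold change of 0.60 was wide (adjusted p by limma = 0.654). Fcrls, an Fc receptor-like gene that microglia express, was at 9.08 to 42.4 TPM and 9.06 to 28.8 TPM (log2 fold change 0.46, adjusted p by limma = 0.631).

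The transcription factor genes were among the least abundant members, and none of the 3 passed. Irf8 was at 2.46, 4.35, 1.29, 8.91 and 3.46 TPM in lateral and 0.227, 1.77, 0, 1.18 and 0.538 TPM in the medial libraries (log2 fold change 1.47, 95% interval 0.44 to 2.51, adjusted p by limma = 0.162). Only lateral replicate 3 lay within the medial range of Irf8. Spi1 was at 0.78, 4.01, 5.57, 4.70 and 5.46 TPM in lateral and 1.89, 0.33, 3.00, 1.05 and 0 TPM in the medial libraries (log2 fold change 1.22, 95% interval 0.12 to 2.31, adjusted p by limma = 0.272). Of the lateral libraries 4 exceeded every medial one for Spi1, and replicate 1 was below 3 of them. Sall1, a zinc-finger factor that holds microglia in the homeostatic state, was at 7.47, 6.26, 4.47, 2.73 and 3.80 TPM in lateral and 1.82, 0.971, 7.49, 3.60 and 1.23 TPM in the medial libraries. The highest Sall1 value was that of medial replicate 3 (log2 fold change 0.73, 95% interval -0.23 to 1.68, adjusted p by limma = 0.461).

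Of the 6 general myeloid genes in the table Ly86 passed, and the other 5 did not. Inpp5d, encoding the inositol phosphatase SHIP1 that restrains immunoreceptor signals, was at 3.22, 1.44, 5.05, 4.90 and 1.38 TPM in lateral and 4.62, 0, 0.528, 0 and 0 TPM in the medial libraries. Medial replicate 1 lay within the lateral range and the other 4 medial libraries below it (log2 fold change 1.33, 95% interval 0.13 to 2.54, adjusted p by limma = 0.274). Aif1, the gene of the actin-bundling protein IBA1 used to stain microglia, was at 29.2, 16.1, 6.90, 20.8 and 11.9 TPM in lateral and 11.5, 8.19, 10.3, 9.84 and 9.09 TPM in the medial libraries. The lateral values of Aif1 included both the highest and the lowest of the 10, and the difference did not pass (log2 fold change 0.60, 95% interval -0.10 to 1.3, adjusted p by limma = 0.402). The tetraspanin gene Cd53 and the membrane-curving protein gene Bin2 had log2 fold changes of 0.49 and 1.00 (adjusted p by limma = 0.489 and 0.454). Itgam, the integrin chain CD11b of complement receptor 3, was at 3.31, 1.44, 2.44, 7.39 and 0.276 TPM in lateral and 2.1, 1.32, 4.57, 2.45 and 0.531 TPM in the medial libraries. The lateral range of Itgam extended past the medial range at both ends (log2 fold change 0.17, 95% interval -0.97 to 1.32, adjusted p by limma = 0.907).

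None of the 5 tested activation and Fc or TREM2 signalling genes passed, and their median log2 fold change was 0.62. Trem2, a lipid-sensing receptor gene of activated microglia, was at 7.30, 9.75, 5.72, 11.3 and 8.43 TPM in lateral and 3.46, 3.11, 4.01, 5.72 and 0.127 TPM in the medial libraries. The regions met at 5.72 TPM, and no other pair overlapped (log2 fold change 1.33, 95% interval 0.37 to 2.29, adjusted p by limma = 0.176). Tyrobp, encoding the adaptor DAP12 through which TREM2 signals, was at 113, 74.7, 96.4, 99.2 and 70.9 TPM in lateral and 75.6, 55.4, 74.4, 54.6 and 60 TPM in the medial libraries. Its log2 fold change of 0.49 was small with a narrow interval (0.11 to 0.87, adjusted p by limma = 0.209). Fcer1g, the common gamma chain of Fc receptors, was at 48.0, 44.0, 41.9, 55.5 and 78.3 TPM in lateral and 46.1, 34.4, 73.8, 21.1 and 16.9 TPM in the medial libraries (log2 fold change 0.62, adjusted p by limma = 0.413). Its high libraries were lateral replicate 5 and medial replicate 3. Fcgr3, a receptor for antibody Fc, was at 10.2 to 29.6 TPM in lateral and 3.29 to 34.3 TPM in the medial libraries (log2 fold change 0.68, adjusted p by limma = 0.554). Lyz2, the macrophage lysozyme gene, was at 36.4, 10.6, 7.33, 24.8 and 5.12 TPM in lateral and 0, 9.67, 60.1, 7.09 and 17.3 TPM in the medial libraries. Both the highest and the lowest value of Lyz2 were medial (log2 fold change 0.51, 95% interval -1.34 to 2.37, adjusted p by limma = 0.822), and it has a close copy, Lyz1, with which reads could be shared.

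Of the 6 lysosomal and endosomal genes 1 passed, Ctss, encoding the cysteine protease cathepsin S of antigen-presenting cells (chromosome 3, 95526786 to 95556403, plus strand). Ctss was at 92.4, 88.7, 58.5, 126 and 77.9 TPM in lateral and 48.1, 36.0, 58.9, 32.8 and 24.9 TPM in the medial libraries. The only overlap was between lateral replicate 3 and medial replicate 3 (log2 fold change 1.14, standard error 0.25, adjusted p by limma = 0.0388). The annotated span of Ctss overlaps a pseudogene, Hmgb1-ps5, on the same strand. Cd68, a glycoprotein of macrophage lysosomes used as a mark of phagocytic activity, was at 17.3, 26.3, 15.9, 24.6 and 36.0 TPM in lateral and 19.2, 13.6, 20.5, 18.5 and 48.6 TPM in the medial libraries. The highest value of Cd68 was in medial replicate 5, and the log2 fold change was 0.08 (95% interval -0.61 to 0.77, adjusted p by limma = 0.933). Laptm5, a lysosomal membrane protein gene of blood-lineage cells, was at 30, 36.4, 26.7, 24.6 and 16.4 TPM in lateral and 22.9, 9.40, 21.9, 18.8 and 5.24 TPM in the medial libraries (log2 fold change 0.87, 95% interval 0.08 to 1.66, adjusted p by limma = 0.275). Lateral replicate 5 was the only lateral library of Laptm5 within the medial range. Unc93b1, which escorts nucleic acid-sensing Toll-like receptors to endosomes, was at 15.4, 4.62, 9.05, 9.05 and 5.30 TPM in lateral and 3.94, 5.96, 7.14, 0.856 and 2.62 TPM in the medial libraries (log2 fold change 0.99, adjusted p by limma = 0.301). The protease genes Ctsz and Lgmn had log2 fold changes of 0.48 and 0.32 (adjusted p by limma = 0.406 and 0.43).

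The calls of C1qa, Tmem119 and Ctss were lost in most fits that left out a single library. C1qa and Tmem119 passed in 2 of the 10 fits that left out 1 library, those without medial replicate 1 and without medial replicate 3, and Ctss in these and in the fit without lateral replicate 3. In the other fits of this kind the adjusted p rose to at most 0.0989 for C1qa, 0.102 for Tmem119 and 0.103 for Ctss, with log2 fold changes of 0.94 to 1.26, 1.34 to 1.69 and 0.99 to 1.29 over all 10. Ly86 passed in all 10. In the whole series the gene AY036118 took between 82500 and 144263 TPM in 8 libraries and 1.38 and 1.42 TPM in lateral replicate 5 and medial replicate 2. Without these 2 libraries, Ly86 alone of the members passed, and the median log2 fold change of the tested members was 0.89. The share of TPM from mitochondrial genes was 26.3% to 35.3% in lateral and 23.5% to 32.5% in medial libraries.

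**Figure D3:**
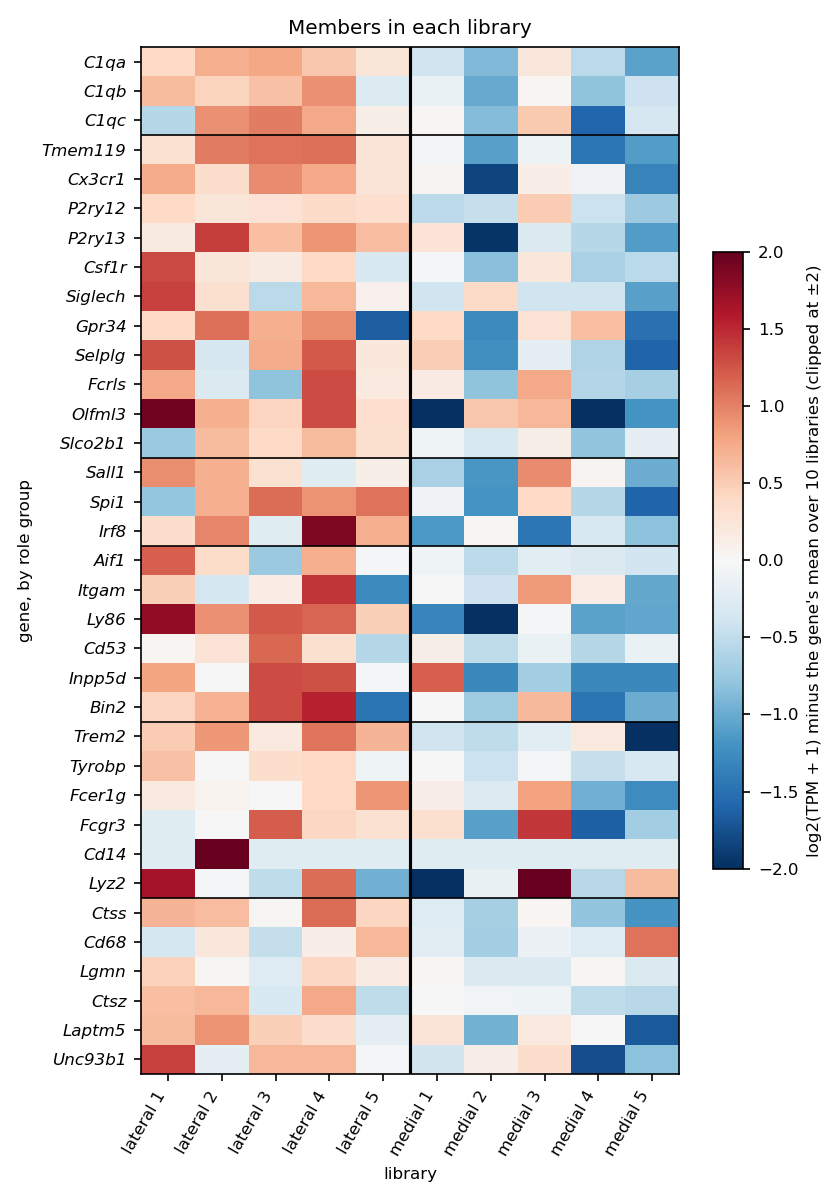
Log2(TPM + 1) of each of the 35 members in the table, minus the gene's mean over the 10 libraries, by role group (rows) and library (columns), with red above and blue below the mean. Most cells are red in lateral and blue in medial libraries, and medial replicate 3 stands out among the medial libraries with 19 of the 35 members at their medial maximum.

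The libraries that were highest and lowest within a region were unevenly spread over the members, and this was not tested. Among the medial libraries replicate 3 had the highest value for 19 of the 35 members, replicate 1 for 10 and the others for 1 or 2 each. Medial replicate 5 had the lowest value for 12 members, replicates 2 and 4 for 9 each, replicate 3 for 2 and replicate 1 for 1. Among the lateral libraries replicate 5 had the lowest value for 16 members and the highest for 2, and replicate 4 the highest for 9 and the lowest for 1. Lateral replicate 1 was highest for 12 members and lowest for 5, and replicate 3 highest for 7 and lowest for 9, so that these libraries were high for some members and low for others. The spread relative to the mean was smaller in lateral than in medial libraries for 24 of the 34 tested members. Values of 0 made up 5 of the 175 lateral and 13 of the 175 medial values of the members. Without medial replicate 3, the median log2 fold change of the tested members was 1.08.

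Relative to that of homeostatic genes, the summed TPM of activation and lysosomal genes was lower in 4 of 5 lateral libraries than in any medial one. The 11 homeostatic genes summed to 222, 162, 161, 227 and 127 TPM in lateral and 117, 64.3, 139, 79.3 and 54.5 TPM in medial replicates 1 to 5. The 12 activation and lysosomal genes summed to 466 ± 75.6 TPM in lateral and 316 ± 83.1 TPM in the medial libraries (SD, n = 5 each), with ranges of 379 to 557 and 254 to 450 TPM. The ratio of the second sum to the first was 2.38, 2.81, 2.35, 2.45 and 3.22 in lateral and 2.94, 4.18, 3.23, 3.21 and 4.82 in medial libraries. Of the lateral libraries 4 had a lower ratio than every medial one, and lateral replicate 5 lay within the medial range. Both sums weigh abundant genes most, and the part of other cell types in the ratio was not tested. Medians of the log2 fold change by role were 0.92 for the 3 C1q genes, 0.76 for the homeostatic genes, 1.22 for the transcription factors, 0.80 for the general myeloid genes, 0.62 for the activation genes and 0.68 for the lysosomal genes. The difference between these medians was not tested.

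**Figure D4:**
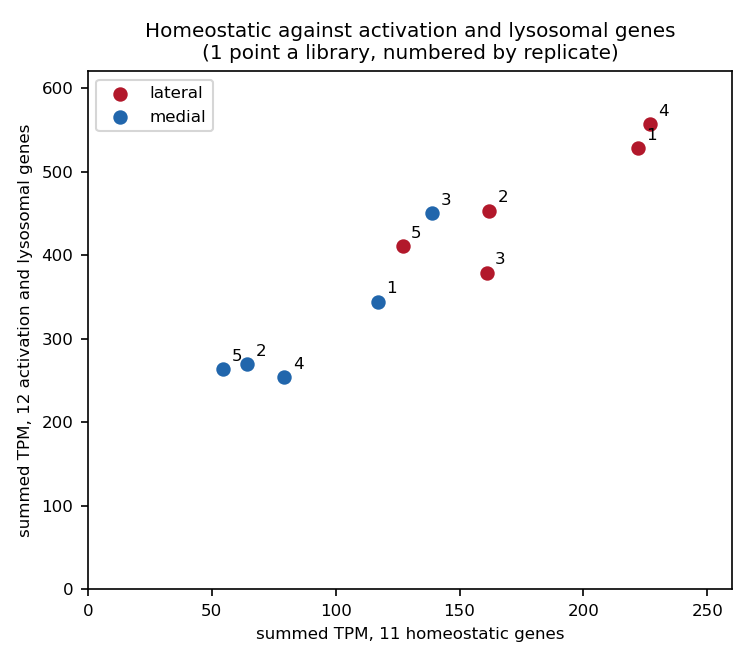
Summed TPM of the 11 homeostatic genes (x axis) and of the 12 activation and lysosomal genes (y axis), 1 point for each library, numbered by replicate. Medial replicates 2, 4 and 5 lie lowest on both axes, lateral replicates 1 and 4 highest, and medial replicate 3 lies near lateral replicate 5.

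By mean over the 10 libraries the most abundant members per length were C1qb at 80.7 TPM, C1qa at 79.3 TPM and Tyrobp at 77.5 TPM, followed by Ctss, Ctsz and Lgmn at 64.4, 59.8 and 52.3 TPM. Fcer1g and C1qc were both at 46.0 TPM and Ly86 at 29.0 TPM. The first 3 of these means lay closer together than the SD of any of the 3 genes within a region. Of the 35 members 23 reached 1 TPM in all 10 libraries. At the low end were Irf8, Inpp5d and Cd14 at 2.42, 2.11 and 0.436 TPM.

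The markers of other macrophages and of blood cells that were in the table were low in most libraries. The levels of those absent from it are unknown. Of 12 genes of border-associated macrophages, which line vessels and meninges, 5 were in the table and none passed the filter. Their summed level was 0.113 to 4.79 TPM in lateral and 0.113 to 23.7 TPM in the medial libraries, and Folr2 was listed at 0 in all 10. The 23.7 TPM were in medial replicate 3. It held 17.3 TPM of Pf4, 4.26 TPM of Mrc1, the mannose receptor gene, 1.89 TPM of Cbr2 and 0.273 TPM of F13a1. The same library had the highest medial value of 19 of the 35 members, among them Lyz2, Fcgr3, Fcer1g, P2ry12, C1qa and Cx3cr1. The part of border-associated macrophages in those values was not tested. Of 14 blood leukocyte genes, 5 were in the table, at a summed 0 to 2.98 TPM in lateral and 0 to 4.58 TPM in the medial libraries, with Plac8 and Cd79b listed at 0 throughout. Tmem119, which such macrophages lack or express little, was at 3.64 TPM or more in all 10 libraries.

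Oligodendrocyte genes also stood higher in lateral libraries, with 13 of 15 log2 fold changes above 0, a median of 0.91 and none passing. Their summed level was 1110, 369, 360, 1022 and 929 TPM in lateral and 557, 151, 314, 460 and 505 TPM in medial replicates 1 to 5. Lateral replicates 2 and 3, whose oligodendrocyte sums lay within the medial range, had summed microglia genes at 1000 and 961 TPM. The medial sums of microglia genes were 453 to 865 TPM. Some single members lay within or below their medial range, among them Selplg in lateral replicate 2 and Ctss and Aif1 in lateral replicate 3. Lateral replicates 1 and 4 had the highest oligodendrocyte sums and also the highest sums of microglia genes, while lateral replicate 5, also with a high oligodendrocyte sum, had the lowest lateral sum of microglia genes. The part of oligodendrocyte content in the members' differences was not tested. The myelin gene Mobp had a log2 fold change of 1.37 (adjusted p by limma = 0.0691, and 0.0443 without lateral replicate 3). Astrocyte genes had a median of -0.25 with 1 of 15 passing, Ntsr2, lower in lateral libraries (log2 fold change -0.90, adjusted p by limma = 0.0492), which passed in 4 of 22 alternative fits. Neuron genes (14), endothelial and mural genes (11) and oligodendrocyte precursor genes (6) had medians of 0.03, 0.20 and -0.05, with none passing in either direction. The smallest p of each list was that of Map2, a microtubule protein gene of dendrites (log2 fold change -0.88, adjusted p by limma = 0.138), of Tek, the angiopoietin receptor gene (0.77, adjusted p = 0.436), and of Tnr, the matrix protein gene of tenascin-R (0.46, adjusted p = 0.444).

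**Figure D5:**
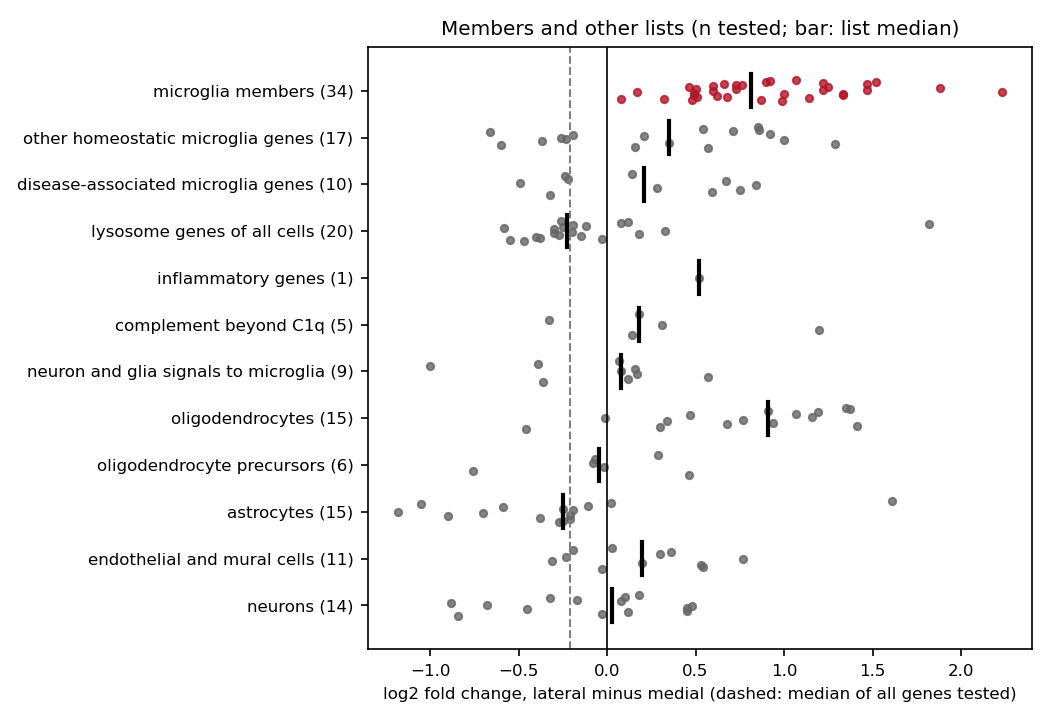
Log2 fold change (x axis) of each tested gene in the 34 microglia members and in the other lists, with the number tested in brackets and a bar at each median. The dashed line is the median of all genes tested (-0.21), and the medians were 0.82 for the members, 0.91 for oligodendrocyte genes and -0.23 for lysosome genes of all cells.

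Genes of the same programmes that are not members had smaller median differences, and whether they differ from the members was not tested. Of 17 tested further genes described as homeostatic in microglia, 11 had a log2 fold change above 0, the median was 0.35 and none passed. The smallest p among them was that of Entpd1, the ectonucleotidase CD39 (7.63 ± 2.82 TPM in lateral and 2.60 ± 1.25 TPM in the medial libraries, log2 fold change 1.29, adjusted p by limma = 0.142; SD, n = 5 each). Of 10 tested genes of disease-associated microglia, 6 were above 0, the median was 0.21 and 1 passed. It was Fth1, the ferritin heavy chain gene, which most cells express and which has processed copies that could share its reads, at 882, 751, 726, 864 and 818 TPM in lateral and 462, 451, 499, 463 and 520 TPM in the medial libraries. These values were far apart with little spread (log2 fold change 0.75, standard error 0.13, adjusted p by limma = 0.013), and Fth1 passed in 19 of 22 alternative fits, but not without the 2 libraries low in AY036118 (adjusted p = 0.098), without a mean-variance trend or with the replicate number as a block. Of 20 lysosome genes that all cells use, 5 were above 0 and none passed. Their median of -0.23 was near the -0.21 of all genes tested, of which 31.3% were above 0. The gene with the largest difference in that list was Ctsh, the aminopeptidase cathepsin H, at 7.75 ± 2.94 and 1.53 ± 1.17 TPM (SD, n = 5 each; log2 fold change 1.82, adjusted p by limma = 0.0525), which passed in 6 of 22 alternative fits.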

How the data were processed

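The deposited table holds TPM for 20483 genes by symbol, 1 column for each of the 10 samples, which the authors scaled to sum to 1000000. The submitters' processing notes list GRCm38 (mm10), featureCounts 1.6.3, StringTie 1.3.4, HISAT2 2.1.0 and fastp 0.20.0 without roles or order, with annotation, strand use and any gene filter not given in the sources used here. TPM keeps no depth, so depth is unknown and no counting interval can be given. Columns were matched to samples by name. Members, lists and tests were chosen with earlier results of these data known. limma 3.58.1 in R 4.3.3 (empirical Bayes with a mean-variance trend) was fitted to log2(TPM + 1), a pseudocount of 1, for the 15596 genes with at least 1 TPM in at least 5 samples, with Benjamini-Hochberg adjustment over all of them and a threshold of 0.05. Scripts were tested on simulated data. Full statistics are given for members that passed and, in each of 6 role groups, for the 3 smallest p and the largest p. Other members are given by range or fold change, and Csf1r and P2ry12 with all values were chosen after these were seen. From the 13 other lists the passing genes, or else 1 or 2 with the smallest p, are named, and the values of 1 such gene are not reported here. Coordinates and overlaps come from GENCODE M21 on GRCm38, and promoters from RefSeq. Figures were drawn with matplotlib 3.10.9. Alternatives changed the pseudocount (0.1, 5), the filter (none, 5 TPM), the scaling, the variance model, sample weights, a replicate block and each sample in turn, and 1 was added after seeing the data.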

Additional observations from a re-analysis of the deposited data

Results flagged for a closer look

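In 5 of 84 sets of 5 libraries, 1 library lay far from the others, its gap to the nearest being more than 0.71 of the whole range. Chance alone does this in about 1 of 20 sets of normally distributed values. TPM values, some of them listed at 0, need not follow that rate. In medial replicate 3, P2ry12 was at 24.5 TPM against 9.75 to 12.2 TPM in the other medial libraries, and Lyz2 at 60.1 TPM against 0 to 17.3 TPM. Inpp5d was at 4.62 TPM in medial replicate 1 against 0 to 0.528 TPM. Cd68 was at 48.6 TPM in medial replicate 5 against 13.6 to 20.5 TPM. Cd14 was at 4.36 TPM in lateral replicate 2 and listed at 0 in the other lateral libraries.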

How the results depend on the processing

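Of the members, 4 were called higher in lateral libraries as reported, 2 with a pseudocount of 0.1 and 2 without a filter on low values, and 1 without a mean-variance trend, with a replicate block, and without the 2 libraries low in AY036118 (an alternative chosen after seeing the data). Leaving out 1 library at a time gave 1 to 4. No member was called lower in any fit. Over all genes, 60 were called higher and 171 lower. A pseudocount of 0.1 gave 107 lower. Median-ratio scaling gave 82 lower and quantile normalization 100, so that the medial share of calls was 48.2% and 53.8% against 74%. Without a trend 34 and 111 were called, with the replicate block 19 and 45, and without the 2 libraries 12 and 31, in a fit of fewer samples and 14745 genes. Leaving out 1 library gave 23 to 69 higher and 56 to 188 lower. The median of the tested members was 0.711 to 1.08 when 1 library was left out. Single genes near 0 ranged, when 1 library was left out, from -0.163 to 0.516 for Itgam, -0.316 to 1.17 for Lyz2 and -0.0823 to 0.359 for Cd68 (log2 fold change). The sign turned for Itgam without lateral replicate 4 (-0.163) or medial replicate 5 (-0.058), for Lyz2 without medial replicate 1 (-0.316) and for Cd68 without lateral replicate 5 (-0.0775), medial replicate 2 (-0.0823) or the 2 libraries low in AY036118 (-0.238). The cause was not tested. Of the fits of single members 698 kept sign and call, 36 lost the call and 1 gained it. Same-numbered samples did not deviate together (correlations across genes from -0.053 to 0.042, none the best match). The labels do not say what a number shares. This check, over all genes tested and few libraries, cannot decide whether samples are paired. With the block C1qa (adjusted p = 0.0598), Tmem119 (0.0977) and Ctss (0.104) lost their calls.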

Other observations

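Genes of signalling from neurons and glia to microglia had a median difference near 0. The list holds ligands together with the receptors Sirpa, Tgfbr1 and Tgfbr2 and the transducer Smad3. Of 9 tested, 6 had a log2 fold change above 0 with a median of 0.08, against -0.21 over all genes tested, and none passed. The smallest p was that of Cd200, a neuronal ligand that restrains microglia, at 31.6 ± 11.8 TPM in lateral and 62.7 ± 19.6 TPM in the medial libraries (SD, n = 5 each; log2 fold change -1.0, 95% interval -1.66 to -0.34, adjusted p by limma = 0.142). It stayed below 0 in all 22 alternative fits, with an adjusted p of 0.0819 to 0.268. Complement genes beyond C1q, 5 of which were tested, had a median of 0.18 with none passing. Among them Cd59a, an inhibitor of the membrane attack complex, was at 8.10 ± 4.00 and 2.92 ± 1.46 TPM (log2 fold change 1.20, adjusted p = 0.149). Of 15 inflammatory genes 3 were in the table and 1 was tested, Nfkbia, at 26.6 ± 9.21 and 18.3 ± 7.19 TPM (log2 fold change 0.52, adjusted p = 0.448).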
